A study of Mus musculus with 24 samples.

Results

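The genes described here are 40 genes of mitosis and of the G2-to-M transition, measured in mouse primary chondrocytes, the cells that make cartilage matrix. They were chosen by name for their roles, with earlier results of these data known, so the counts below describe this set. The set holds mitotic cyclins and their kinase, other mitotic kinases, kinesins, and genes of the kinetochore, spindle and cytokinesis. All 40 were found among the 17094 rows of the expression table, and all 40 were among the 12178 genes with at least 1 FPKM in at least 3 libraries, which were tested. FPKM is the number of sequenced fragments per kilobase of gene, scaled to the mapped fragments of the library, so levels of different genes can be set side by side.

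A cell enters mitosis when cyclin A and then cyclin B activate the kinase CDK1. Chromosomes then condense, attach to the spindle through their kinetochores, separate and are parted by cytokinesis. Transcripts of these genes are scarce in resting and G1 cells and accumulate in late S, G2 and M phase, under the transcription factors B-MYB and FOXM1 and the MuvB complex, so their level in a bulk culture reflects how many cells are cycling as well as how much each cell makes. Fewer cycling cells and less RNA per cycling cell cannot be told apart in these bulk samples. Chondrocytes divide in the growth plate and after isolation into culture, and divide little in adult articular cartilage. Interleukin-1β (IL-1β), an inflammatory cytokine, is added to chondrocytes to model an inflamed joint.

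All cells were wild type. Cartilage-derived chondrocytes sat in the lower well of transwell dishes, either alone (normal culture) or together with primary dermal fibroblasts (DFbs), and the chondrocytes alone were collected for poly(A)-selected RNA sequencing. IL-1β at 10 ng/ml was added 24 h after the cells attached, or left out, and cells were taken 36 h or 72 h later, which gave 8 groups of 3 libraries: normal culture untreated, normal culture with IL-1β, co-culture untreated and co-culture with IL-1β, each at 36 h and at 72 h. Chondrocytes were kept in DMEM/F12 with ITS and fetal bovine serum, and DFbs in alpha-MEM with fetal bovine serum. The medium of the co-cultures, the number and age of the animals, and whether replicates came from separate cultures are not given in the sources used here. P-values below therefore measure the spread between these libraries, which may be technical.

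Across the 24 libraries the summed FPKM ran from 438242 to 506621, and 11335 to 11607 genes reached 1 FPKM. Read depth is unknown, since FPKM values alone were used. The cartilage collagen gene Col2a1 was present in every library (112 to 804 FPKM), as were Sox9 (4.94 to 30.9) and Acan (1.02 to 20.6), whereas the cartilage matrilin gene Matn1 was at 0 to 0.07 FPKM. The collagen I gene Col1a1, abundant in fibroblasts and in chondrocytes that lose their phenotype in culture, stood at 1373 to 2537 FPKM.

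Promoter letters are shown first because the members moved together, and because cell cycle genes that peak in G2 and M are known for 2 short promoter elements: the cell cycle genes homology region (CHR), read by MuvB complexes, and the CCAAT box, bound by NF-Y. RefSeq promoters of build GRCm38.p6, 250 bases before to 50 after each start, were matched for 33 of the 40 members, which had 35 promoters. No entry was matched for Kif20a, Tpx2, Cdc25c, Aurkb, Spc24, Ccna2 and Foxm1. Below, the 100 bases before the start are written 5′ to 3′ along the gene's strand, and capitals mark each TTTGAA or TTCGAA (CHR type) and each CCAAT, on either strand, so TTCAAA and ATTGG are the same motifs read on the opposite strand. The 6 genes span the results at 36 h: Cdc20 (chr4:118437344-118437443, minus strand), Kif11 (chr19:37376282-37376381, plus) and Top2a (chr11:99024190-99024289, minus) fell at least 2-fold with IL-1β in normal culture, Cdk1 (chr10:69352913-69353012, minus) by slightly less, Ube2c (chr2:164769829-164769928, plus) was the member least lowered in co-culture, and Mybl2 (chr2:163054535-163054634, plus) fell at least 2-fold with neither motif in its promoter.
Cdk1: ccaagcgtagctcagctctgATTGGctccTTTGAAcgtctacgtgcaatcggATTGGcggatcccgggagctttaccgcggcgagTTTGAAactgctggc
Cdc20: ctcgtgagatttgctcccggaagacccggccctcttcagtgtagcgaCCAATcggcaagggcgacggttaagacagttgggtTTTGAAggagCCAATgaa
Kif11: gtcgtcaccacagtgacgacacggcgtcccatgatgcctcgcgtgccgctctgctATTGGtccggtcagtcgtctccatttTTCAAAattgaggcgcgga
Top2a: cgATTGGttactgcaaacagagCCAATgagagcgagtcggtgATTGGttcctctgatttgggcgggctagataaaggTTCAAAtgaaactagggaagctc
Ube2c: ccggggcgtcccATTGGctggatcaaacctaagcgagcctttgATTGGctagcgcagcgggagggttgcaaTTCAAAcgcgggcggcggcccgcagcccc
Mybl2: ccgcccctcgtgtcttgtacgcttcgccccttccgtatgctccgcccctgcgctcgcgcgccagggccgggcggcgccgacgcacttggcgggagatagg

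A TTTGAA or TTCGAA was found in 28 of the 35 member promoters (80%), against 19.2% of the 32851 promoters in the table. A CCAAT was also found in 28 of 35 (80%), against 37.4% of all, and 2 or more CCAAT in 20 (57.1%), against 11.7%. Both motifs were present in 25 of 35 (71.4%), against 7.52% of all promoters, and 1 match of the first overlapped a CCAAT. Neither was present in 4 (11.4%), those of Birc5, Mybl2, Nuf2 and Nusap1, against 50.9%. Among the other lists of cell cycle genes described further on, both motifs were present in 55.6% of promoters of other spindle, kinesin and cytokinesis genes. The share was 34.6% for other mitotic entry and checkpoint regulators, 31.2% for other kinetochore and centromere genes and 26.7% for condensin and cohesin genes. It was 23.1% for MuvB, pocket protein and E2F genes, 13.8% for DNA replication genes and 12.5% for centriole duplication genes. None of the 17 promoters of anaphase-promoting complex subunits or the 21 of G1 cyclins and CDK inhibitors had both. These lists are small, and their differences from all promoters were not tested. A match is a description of letters in a window, not a bound site. Other forms of the 2 elements were not searched for, so a promoter counted with neither motif, such as that of Mybl2, may hold another form.

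One library stood apart. In replicate 1 of normal culture with IL-1β at 72 h, all 40 members were at their lowest of that group (39.5% of all genes tested were), and their summed level was 735.8 FPKM against 1090 and 1068 in the other two. Its members stood at a median of 0.683 times the mean of the other two libraries. The median coefficient of variation of the members within that group was 21.1%, against 3.45% to 7.06% in the other 7 groups. Its median-of-ratios size factor (0.974) was the lowest of the 24, which ran to 1.054, and its level of Cdkn1a, the gene of the CDK inhibitor p21, was 524.7 FPKM against 376 and 403 in replicates 2 and 3. Counts of members called in comparisons that use this library are given with and without it. Group levels, ratios of means and most single-gene changes include it.

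At both times the members as a group were highest in the 2 untreated cultures, lower with IL-1β in co-culture and lowest with IL-1β in normal culture. At 36 h their mean level per library, as log2(FPKM + 1) averaged over the 40 genes, was 3.995 ± 0.06 (SD, n = 3) in untreated normal culture and 3.90 ± 0.02 in untreated co-culture. It was 2.62 ± 0.08 with IL-1β in normal culture and 3.25 ± 0.02 with IL-1β in co-culture. At 72 h the same 4 groups stood at 5.06 ± 0.06, 5.14 ± 0.03, 4.34 ± 0.29 and 4.70 ± 0.03. On the FPKM scale the median member was at 14.8, 13.4, 5.02 and 8.49 at 36 h, and at 31.0, 33.6, 18.7 and 24.3 at 72 h, in the same order of groups. The untreated libraries of the 2 cultures overlapped at 72 h, and at 36 h those of co-culture (3.88 to 3.91) lay just below those of normal culture (3.93 to 4.04). At each time every IL-1β library of normal culture lay below every IL-1β library of co-culture.

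**Figure D1:**
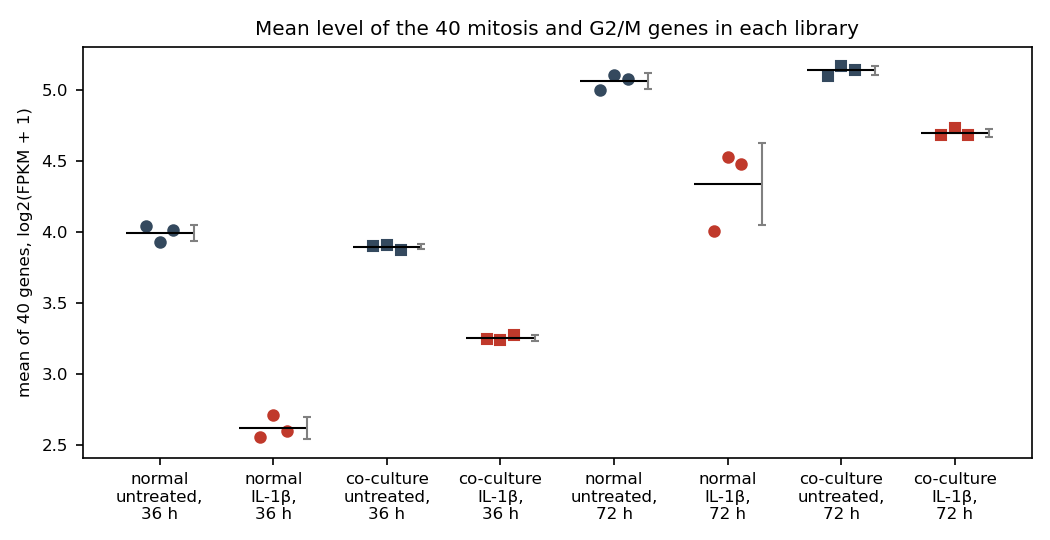
Mean of the 40 members as log2(FPKM + 1) in each of the 24 libraries (points), by group and time, with the mean of each group as a line. The IL-1β groups lie lowest at each time (2.62 and 3.25 at 36 h), and 1 library of normal culture with IL-1β at 72 h lies apart from the other two (4.01 against 4.53 and 4.48).

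IL-1β lowered every member in normal culture at 36 h. All 40 were lower by limma (adjusted p under 0.05, Benjamini-Hochberg over 12178 genes, the highest adjusted p among members being 5.3e-06), while 41.5% of all genes tested were lower. The median log2 change of the members was -1.41, with a range from -1.93 (Mki67) to -0.58 (Spc25), against -0.09 for all genes tested. In FPKM the median member stood at 0.327 of its untreated level, and 33 members fell at least 2-fold on the log2(FPKM + 1) scale, which 3.93% of all genes did. In all 40 genes the treated libraries lay below the untreated ones without overlap, as they did in 44.9% of all genes.

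In co-culture the fall was shallower. IL-1β lowered 36 of 40 members at 36 h, with 35.3% of all genes lower, a median change of -0.68 and a median level of 0.588 of the untreated one. The 4 that did not pass were Spc25 (-0.19, adjusted p = 0.0502 by limma), Cenpa (-0.16), Nek2 (-0.15) and Ube2c (-0.10). The difference between the 2 responses was itself tested: the interaction of co-culture and IL-1β at 36 h was positive and past the threshold for 38 of 40 members, with 4.73% of all genes positive, a median of 0.73 and standard errors of 0.09 to 0.20. It ranged from 0.40 (Spc25) to 1.01 (Birc5), and missed the threshold for Cenpf (0.52, limma adjusted p = 0.074) and Cdk1 (0.46, adjusted p = 0.075).

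Set against normal culture, the members were higher in co-culture where IL-1β was present. At 36 h under IL-1β, 39 of 40 were higher in co-culture than in normal culture, against 6.38% of all genes, with a median change of 0.65 and a median ratio of means of 1.68. The exception was Spc25 (0.22 ± 0.08 SE, limma adjusted p = 0.0958). On the log2(FPKM + 1) scale the largest change was that of Birc5 (0.86 ± 0.14 SE). The ratio of means was larger for Mybl2 (1.27 against 0.547 FPKM) than for Birc5 (14.7 against 7.78). In all 40 genes the 3 co-culture libraries lay above the 3 normal-culture ones, which held for 17.4% of all genes. This comparison shares its IL-1β libraries with the interaction. Without IL-1β at 36 h, limma called none of the 40 between co-culture and normal culture, with 15.5% of all genes called in either direction, and 3 members had an unadjusted p under 0.05. Their median change was -0.09, from -0.28 (Nuf2) to 0.05 (Anln), and 38 of the 40 changes were negative, with 59.9% of all genes negative. When the 2 untreated groups were fitted alone, 11 members were lower, and 7 were when the library that stood apart was left out.

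Among the mitotic cyclins and the CDK1 axis, all 5 members fell with IL-1β in both cultures at 36 h. Ccna2 encodes cyclin A2, which acts with CDK2 in S phase and CDK1 in G2. Its level was 26.5, 24.7 and 26.4 FPKM in the 3 untreated normal-culture libraries and 5.94, 6.81 and 6.39 with IL-1β. In co-culture it was 25.2, 24.3 and 24.0 untreated and 11.96, 12.1 and 12.2 with IL-1β. The 2 untreated groups overlapped, and the IL-1β libraries of co-culture lay between the untreated ones and those of normal culture with IL-1β. Its log2 change with IL-1β was -1.87 ± 0.11 (SE) in normal culture and -0.96 in co-culture, and the interaction was 0.91 (limma adjusted p = 0.00105).

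Ccnb1, the cyclin B1 gene whose product drives entry into mitosis, showed the same order. It stood at 27.1, 25.9 and 27.3 FPKM in untreated normal culture and 9.74, 10.5 and 10.8 with IL-1β. In co-culture it stood at 24.0, 24.6 and 23.6 and, with IL-1β, at 16.9, 17.5 and 16.8. No group overlapped another, and the untreated co-culture lay slightly below untreated normal culture. Cdk1, the kinase both cyclins activate, changed least of the 5 in normal culture. It went from 18.5, 16.5 and 17.1 to 7.80, 9.08 and 8.06 FPKM (-0.98 ± 0.11 SE) in normal culture and from 16.4, 16.2 and 16.1 to 11.4, 10.3 and 11.3 (-0.52) in co-culture. Ccnb2, for cyclin B2, and Cdc25c, for the phosphatase that removes the inhibitory phosphates from CDK1, fell by 1.36 and 1.09 in normal culture and by 0.58 and 0.33 in co-culture.

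Both transcription factor genes fell. Foxm1, whose product activates late cell cycle genes, was at 9.98, 8.72 and 9.64 FPKM untreated and 2.32, 2.41 and 2.66 with IL-1β in normal culture, and at 8.85, 8.84 and 9.54 untreated and 4.82, 4.59 and 4.62 with IL-1β in co-culture. Mybl2, which encodes B-MYB, was at 4.08, 3.36 and 3.67 FPKM untreated and 0.54, 0.72 and 0.38 with IL-1β in normal culture, and at 3.15, 3.40 and 3.22 untreated and 1.24, 1.33 and 1.23 with IL-1β in co-culture. The untreated groups of Foxm1 overlapped, and its treated groups did not. In Mybl2 every IL-1β library of normal culture was below 1 FPKM and every one of co-culture above it. The log2 changes with IL-1β in normal culture were -1.59 for Foxm1 and -1.61 for Mybl2, and under IL-1β co-culture was higher by 0.71 (limma adjusted p = 4.22e-05) and 0.56 (adjusted p = 0.00648). Adding 1 to the FPKM compresses these changes more for Mybl2, the lower of the 2 genes. Its ratios of mean FPKM were larger than those of Foxm1 in both comparisons. With IL-1β in normal culture its mean went from 3.70 to 0.547, against 9.45 to 2.46 for Foxm1. With IL-1β in co-culture the means were 1.27 and 4.68.

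All 6 mitotic kinases fell in normal culture, with log2 changes from -1.71 to -0.77, and 5 of them in co-culture. Plk1, the Polo kinase that acts from mitotic entry to cytokinesis, fell most on the log2(FPKM + 1) scale in normal culture. Its level was 20.3, 18.0 and 18.8 FPKM untreated and 4.74, 5.79 and 4.81 with IL-1β in normal culture, and 17.5, 16.9 and 16.9 untreated and 9.01, 9.16 and 9.92 with IL-1β in co-culture. No group of Plk1 overlapped another, and co-culture with IL-1β lay between the untreated groups and normal culture with IL-1β. Aurka, the spindle-pole Aurora kinase, fell by 1.19 in normal culture and 0.37 in co-culture, and Aurkb, the kinase of the chromosomal passenger complex, by 1.54 and 0.90. The checkpoint kinase genes Ttk and Bub1 fell by 1.52 and 1.48 in normal culture and each by 0.68 in co-culture. Nek2, a centrosome kinase, changed least: 5.38, 6.38 and 5.98 FPKM became 3.18, 3.06 and 2.87 in normal culture, while in co-culture it was at 5.73, 5.37 and 5.47 untreated and 5.26, 4.59 and 4.84 with IL-1β, which did not overlap and did not pass the test (-0.15 ± 0.08 SE, limma adjusted p = 0.138).

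The 5 genes of the spindle checkpoint, of anaphase timing and of the chromosomal passenger complex changed by -1.86 (Birc5) to -0.82 (Ube2c) in normal culture. Cdc20, the activator of the anaphase-promoting complex, was at 29.1, 27.5 and 29.3 FPKM untreated and 8.59, 9.05 and 7.81 with IL-1β in normal culture, and at 26.0, 26.4 and 24.1 untreated and 14.5, 14.6 and 15.9 with IL-1β in co-culture. Birc5, the gene of survivin, a passenger protein that also counters cell death, went from 33.7, 27.9 and 30.4 to 6.45, 9.76 and 7.14 in normal culture and from 26.0, 27.2 and 28.9 to 13.7, 14.4 and 16.2 in co-culture. In both genes the 2 IL-1β groups lay apart from each other and below the untreated groups, which overlapped in Birc5 and not in Cdc20. Birc5 had the largest interaction of the 40 on the log2(FPKM + 1) scale (1.01 ± 0.20 SE, limma adjusted p = 0.00255).

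Ube2c, the ubiquitin-conjugating enzyme that works with the anaphase-promoting complex, was the member least lowered in co-culture. It went down in normal culture from 48.7, 43.6 and 41.3 to 24.2, 27.2 and 23.1 FPKM (-0.82 ± 0.12 SE). In co-culture it was at 44.5, 44.0 and 43.2 untreated and 44.6, 37.4 and 41.1 with IL-1β, where the libraries overlapped (-0.10 ± 0.12 SE, limma adjusted p = 0.486). Its interaction was 0.72 (adjusted p = 0.00934), close to the members' median. Bub1b, for the checkpoint protein BUBR1, and Cdca8, for the passenger protein borealin, fell by 1.49 and 1.44 in normal culture and by 0.74 and 0.50 in co-culture.

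The 4 genes of the NDC80 complex, which ties kinetochores to microtubules, spanned much of the members' range. In normal culture Nuf2 fell by 1.77, Ndc80 by 1.76 and Spc24 by 1.68, while Spc25 fell by 0.58, the smallest fall of the 40. Spc24, the partner of Spc25 within the complex, went from 10.8, 9.22 and 10.7 to 2.70, 2.78 and 2.08 FPKM, and Spc25 from 20.5, 18.6 and 20.2 to 12.2, 13.7 and 12.5. In co-culture Spc24 went from 9.17, 10.8 and 8.43 to 4.13, 4.72 and 3.96 and Spc25 from 17.5, 18.6 and 15.9 to 15.3, 15.8 and 14.03. The treated libraries of both genes lay below the untreated ones in each culture, and the IL-1β libraries of normal culture lay below those of co-culture. The difference between Spc24 and Spc25 was not tested. Of the centromere genes, Cenpa, the centromeric histone H3 variant, fell by 0.77, Cenpe, a kinetochore motor, by 0.94 and Cenpf, a kinetochore protein, by 1.22. Cenpa was at 36.5, 29.2 and 32.8 FPKM untreated and 15.8, 22.2 and 18.5 with IL-1β in normal culture and at 32.3, 31.5 and 32.0 untreated and 26.9, 30.6 and 28.1 with IL-1β in co-culture, where the treated libraries lay below the untreated ones without passing the test (adjusted p = 0.263 by limma).

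The kinesins fell together. All 6 were lower with IL-1β in both cultures, with changes from -1.76 to -1.19 in normal culture and from -0.97 to -0.53 in co-culture. Kif11 (Eg5), the motor that pushes spindle poles apart, had the lowest adjusted p of the 40 in normal culture (2.14e-13 by limma) and went from 13.1, 13.0 and 13.8 to 2.97, 3.51 and 3.18 FPKM. In co-culture it went from 12.8, 12.3 and 11.8 to 5.41, 5.83 and 6.10, and none of these 4 groups overlapped. Kif20a and Kif23, motors of the central spindle, fell to 0.319 and 0.301 of their untreated means, while on the log2 scale the depolymerase gene Kif2c fell by 1.28, and the chromokinesin genes Kif22 and Kif4 by 1.41 and 1.19, all in normal culture.

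The spindle genes Tpx2, Nusap1, Hmmr and Prc1 changed by -0.94 (Hmmr) to -1.31 (Prc1) in normal culture, all past the threshold. Of the cytokinesis genes, Racgap1, a subunit of centralspindlin, fell by 1.66, Ect2, the exchange factor it recruits, by 1.40, and Anln, the gene of the ring scaffold anillin, by 1.22. Mki67 encodes the proliferation marker Ki-67 on the surface of mitotic chromosomes. It had the largest fall on the log2(FPKM + 1) scale in both cultures. It stood at 19.6, 20.8 and 21.7 FPKM untreated and 4.33, 4.59 and 5.16 with IL-1β in normal culture, a fall to 0.227 of the untreated mean. In co-culture it stood at 19.1, 19.4 and 19.4 untreated and 8.10, 8.36 and 8.94 with IL-1β, a fall to 0.439. No 2 of these groups overlapped. In FPKM Mybl2 fell to a smaller share of its untreated mean than Mki67. Its mean went from 3.70 to 0.547 in normal culture and from 3.26 to 1.27 in co-culture. Top2a, the topoisomerase that untangles sister chromatids, was with Ube2c the most expressed member in untreated normal culture (46.1, 43.9 and 46.6 FPKM) and fell to 16.5, 17.8 and 17.3 there.

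**Figure D2:**
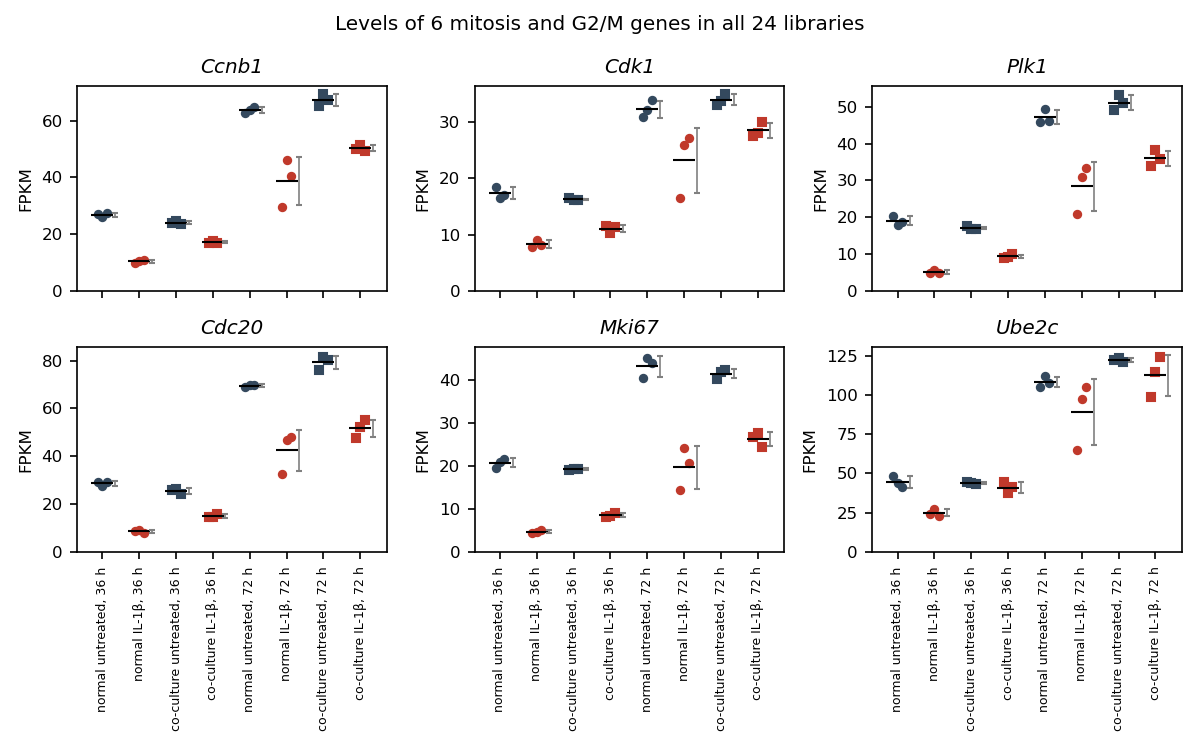
FPKM of Ccnb1, Cdk1, Plk1, Cdc20, Mki67 and Ube2c in each library (points), with the mean of each group (black line) and its SD (grey bar), by culture, IL-1β and time. In each gene the IL-1β libraries of normal culture at 36 h are the lowest, for example 4.33 to 5.16 FPKM for Mki67 against 19.6 to 21.7 untreated.

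At 72 h IL-1β still lowered the members, by less. In normal culture all 40 were lower, with 40.3% of all genes lower, at a median change of -0.72 and from -1.21 (Kif11) to -0.31 (Ube2c). Without the library that stood apart, 38 were lower at a median of -0.55, and Cenpa and Ube2c did not pass. In co-culture 35 of 40 were lower, against 30.6% of all genes, at a median of -0.43. The 5 that did not pass there were Cdk1 (-0.25), Cenpa (-0.24), Mybl2 (-0.31), Spc25 (-0.19) and Ube2c (-0.13), with limma adjusted p from 0.052 to 0.39. The median member stood at 0.602 of its untreated level in normal culture and at 0.732 in co-culture.

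The low library is visible in single members at 72 h. Kif11 was at 26.5, 30.5 and 28.1 FPKM in untreated normal culture and 9.86, 14.3 and 11.3 with IL-1β, and at 26.6, 28.9 and 27.1 untreated and 18.4, 17.5 and 14.4 with IL-1β in co-culture. Its IL-1β libraries lay below the untreated ones in either culture, and those of the 2 cultures did not overlap. Ccnb1 was at 62.7, 63.7 and 64.7 untreated and 29.5, 46.0 and 40.6 with IL-1β in normal culture and at 65.2, 69.2 and 67.2 untreated and 50.1, 51.3 and 49.2 with IL-1β in co-culture. Replicate 1 was the low value of the treated group. Ube2c was at 105.5, 112.3 and 107.6 untreated and 65.1, 97.4 and 105.4 with IL-1β in normal culture, where replicate 1 lay far below the untreated libraries and the other two just below them, and at 122.7, 123.5 and 121.4 untreated and 98.8, 114.8 and 124.6 with IL-1β in co-culture, where they overlapped.

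Co-culture under IL-1β at 72 h was higher than normal culture under IL-1β for 32 of 40 members (7.22% of all genes were higher), at a median of 0.37. That count rested on single libraries. It was 12, at a median of 0.18, without the library that stood apart, and 21 and 13 without replicate 1 or replicate 2 of co-culture with IL-1β at 72 h. Same-numbered libraries of these 2 groups deviated together (correlations of 0.179 to 0.577). The count was 33 when the replicate number was a block in the fit of all libraries, and 0 when the 2 groups were fitted alone, with or without that block. The 12 that passed without the library that stood apart were Anln, Bub1b, Ccna2, Ccnb1, Cdc25c, Ect2, Kif11, Kif2c, Nusap1, Racgap1, Top2a and Ttk. In untreated cells at 72 h, limma called none of the 40 between co-culture and normal culture, against 3.4% of all genes in either direction, with 1 unadjusted p under 0.05 and a median of 0.07. When those 2 groups were fitted alone, 8 members were higher, and 3 were without the library that stood apart.

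The interaction of co-culture and IL-1β at 72 h passed for 2 members, against 1.68% of all genes: Kif11 (0.52 ± 0.13 SE, limma adjusted p = 0.0356) and Nusap1, the gene of a protein that bundles spindle microtubules (0.44 ± 0.10 SE, adjusted p = 0.0187). All 40 values were positive, with 55.6% of all genes positive and a median of 0.29, and 20 had an unadjusted p under 0.05. Neither call was stable. No member passed when the 4 groups of 72 h were fitted alone, with or without the replicate block, or without replicate 2 of untreated normal culture or of co-culture with IL-1β at 72 h. Without the library that stood apart the median was 0.11 and Nusap1 alone passed (0.35, limma adjusted p = 0.0273), while Kif11 was at 0.41 (adjusted p = 0.0555). Without replicate 2 of the same group 15 passed.

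Every member rose between 36 h and 72 h in each of the 4 conditions. In untreated normal culture all 40 were higher at 72 h (33.1% of all genes were), with a median change of 1.07 and a median ratio of 2.20, from 0.74 (Spc24) to 1.33 (Anln). In untreated co-culture all 40 were higher (36.6% of all genes), from 0.94 (Nusap1) to 1.60 (Cdc20), with a median ratio of 2.46. With IL-1β all 40 were higher in normal culture (37.1% of all genes), at a median ratio of 3.83, and all 40 in co-culture (35.4% of all genes), at 2.92. Without the library that stood apart all 40 were still higher in normal culture with IL-1β, at a median log2 change of 1.94 against 1.73 with it. In each of these 4 comparisons the libraries of 72 h lay above those of 36 h without overlap for all 40 members. Over all genes this held for 38.8% in untreated normal culture, 42.1% in untreated co-culture, and 34.9% and 36.7% with IL-1β in normal culture and co-culture.

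Anln rose from 22.4, 20.1 and 23.3 to 54.7, 59.1 and 56.2 FPKM in untreated normal culture, and Cdc20 from 26.0, 26.4 and 24.1 to 76.2, 81.5 and 80.3 in untreated co-culture. Birc5 had the largest rise on the log2(FPKM + 1) scale under IL-1β in either culture. It rose from 6.45, 9.76 and 7.14 to 33.1, 51.1 and 57.6 FPKM in normal culture (2.44 ± 0.14 SE, and 2.67 without the library that stood apart). In co-culture it rose from 13.7, 14.4 and 16.2 to 54.3, 62.7 and 62.7 (1.95 ± 0.14 SE). These levels at 72 h with IL-1β stayed below those of untreated cells of the same time, which were 71.8, 68.3 and 76.5 FPKM in normal culture and 77.6, 82.9 and 81.6 in co-culture. By ratio of mean FPKM Mybl2 rose more than Birc5 under IL-1β. Its mean went from 0.547 to 4.69 in normal culture and from 1.27 to 6.47 in co-culture. The plot of IL-1β changes by gene shows both times.

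**Figure D3:**
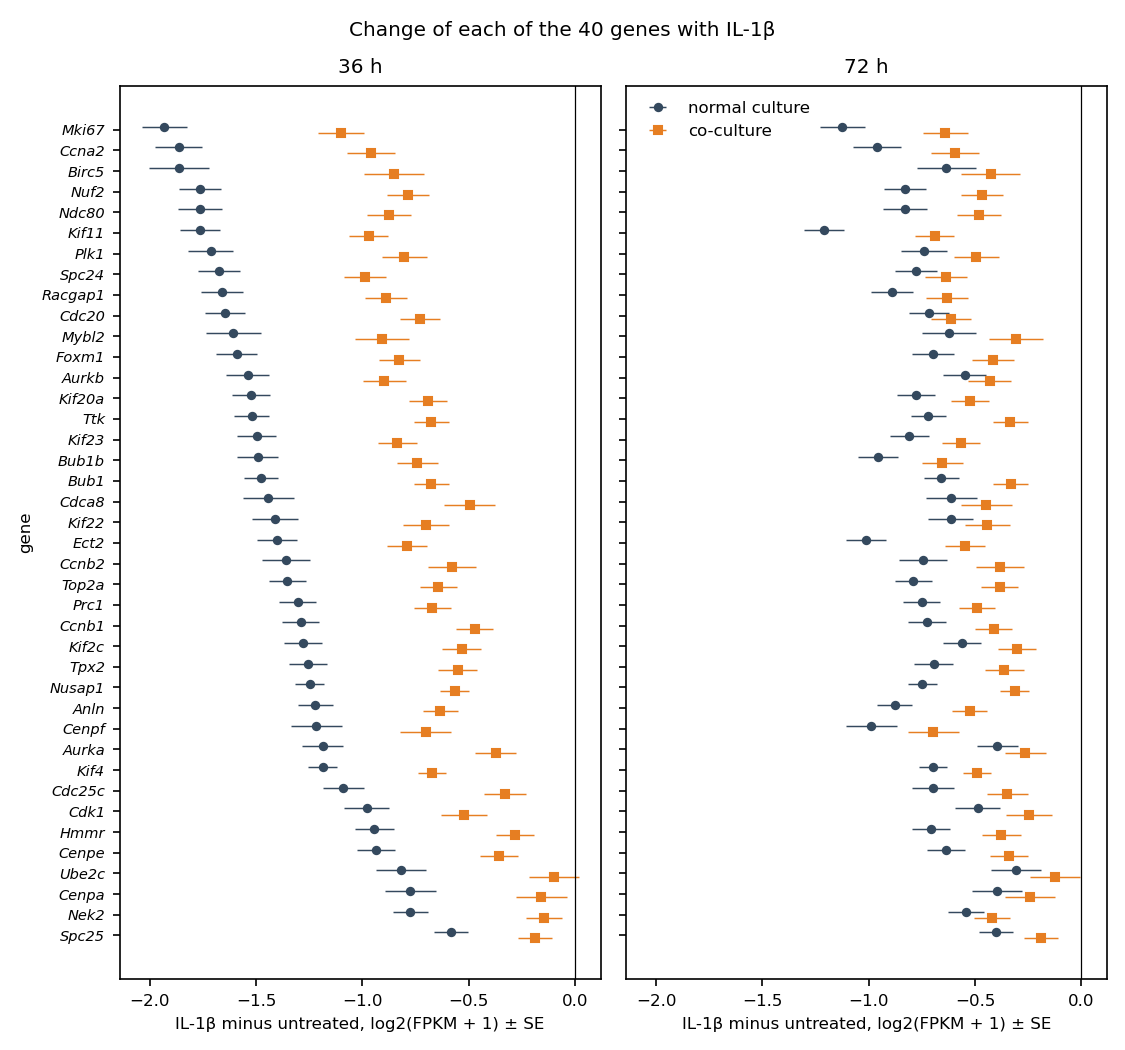
Log2 change with IL-1β of each of the 40 members, with its standard error, in normal culture and in co-culture, at 36 h and at 72 h. At 36 h the changes in normal culture run from -1.93 to -0.58 and those in co-culture from -1.10 to -0.10, and the medians go from -1.41 and -0.68 at 36 h to -0.72 and -0.43 at 72 h.

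The IL-1β effect was smaller at 72 h than at 36 h in normal culture. The difference between times was positive and past the threshold for 34 of 40 members (23.7% of all genes were positive), with a median of 0.65. Its largest value on the log2(FPKM + 1) scale was that of Birc5 (1.23). Cenpf, Cenpa, Hmmr, Nek2, Cenpe and Spc25 did not pass, and without the library that stood apart all 40 passed at a median of 0.85. In co-culture the difference passed for 7 members (17.5%), a share close to the 14.1% of all genes, at a median of 0.24. They were Mybl2 (0.60), Aurkb (0.47), Mki67 (0.46), Foxm1 (0.41), Ndc80 (0.40), Ttk (0.34) and Bub1 (0.34), and the count was 20 without the library that stood apart, which this comparison uses only for the shared estimate of spread. It was 3 or 4 without replicate 1 of untreated co-culture at 36 h or 72 h, replicate 2 of untreated co-culture at 72 h, or replicate 2 of co-culture with IL-1β at 36 h or 72 h. For the co-culture effect, limma called no member between the times. In untreated cells the median difference was 0.19, with 3 unadjusted p-values under 0.05 and 4.97% of all genes called. Under IL-1β it was -0.27, with 21 unadjusted p-values under 0.05, all 40 values negative (46.4% of all genes were) and 2.6% of all genes called. Without the library that stood apart, limma called 7 members in untreated cells and 29 under IL-1β.

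Across the 24 libraries the members varied together. Pearson's r of log2(FPKM + 1) had a median of 0.984 over the 780 pairs of members, with a lowest value of 0.863, a description over libraries that share groups and times. Taken as deviations from the group means it was 0.737, and 0.356 when the group with the library that stood apart was left out, with pairs from -0.45 to 0.90. Ube2c (0.949), Spc25 (0.954) and Cenpa (0.964) had the lowest r with the mean of the other members. These are also 3 of the 4 members that IL-1β did not lower past the threshold in co-culture at 36 h. The co-culture libraries of 36 h enter r as well, so this overlap is not a separate observation. The 40 genes lie on 16 chromosomes in GENCODE vM21 (GRCm38), with 8 on chromosome 2 (Aurka, Bub1, Bub1b, Mybl2, Nusap1, Spc25, Tpx2 and Ube2c), and all are protein-coding.

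The members' response was set beside other cell cycle lists. With IL-1β in normal culture at 36 h, all 32 DNA replication and S phase genes fell (median -1.29), as did 29 of 31 other spindle, kinesin and cytokinesis genes (median -0.9997), 32 of 34 other kinetochore and centromere genes (-1.003), 23 of 27 other mitotic entry and checkpoint regulators (-0.77) and 16 of 19 condensin and cohesin genes (-0.81). Smaller changes were seen elsewhere: 11 of 15 anaphase-promoting complex subunits fell at a median of -0.24, 13 of 20 MuvB, pocket protein and E2F genes at -0.26 and 10 of 10 centriole duplication genes at -0.29. Over all genes 41.5% were lower, at a median of -0.09.

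Under IL-1β at 36 h, co-culture was higher for 27 of 31 other spindle, kinesin and cytokinesis genes (median 0.45), 23 of 32 replication genes (0.38), 22 of 34 other kinetochore genes (0.40), 17 of 27 other mitotic entry genes (0.33) and 9 of 19 condensin and cohesin genes (0.15). It was higher for 4 of 10 centriole genes, 1 of 15 anaphase-promoting complex subunits and 2 of 20 MuvB and E2F genes. Over all genes 6.38% were higher, so the last 2 counts are near the background, and 4.17% were lower, which among these lists held for 1 mitotic entry gene. Mcm3, a subunit of the replicative helicase, was at 19.1, 19.1 and 19.7 FPKM untreated and 2.72, 3.88 and 3.23 with IL-1β in normal culture, and at 5.92, 5.78 and 6.17 with IL-1β in co-culture, between the other two groups.

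In these lists, leaving aside the G1 genes, 7 genes rose. Psrc1, the gene of a spindle protein, rose with IL-1β in normal culture from 16.1, 15.4 and 15.9 to 61.7, 65.2 and 57.7 FPKM (1.89 ± 0.07 SE, limma adjusted p = 1.44e-16). Pttg1, the securin gene, rose by 0.89, Zwint, a kinetochore gene, by 0.70 and Gtse1, a G2 regulator of p53, by 0.66. Rb1, the retinoblastoma gene, rose by 1.06, and Anapc7 and Lin52 by 0.23 and 0.18. Psrc1 and Rb1 are named for the size of this change and the other 5 were singled out after their values were seen, so all 7 are descriptions. The G1 and CDK inhibitor list was mixed, with 7 of 21 higher and 10 lower, while 25.9% of all genes were higher and 41.5% lower. Its largest change was the fall of Cdkn1c, the gene of the CDK inhibitor p57, from 74.8, 78.0 and 70.7 to 12.4, 12.5 and 10.1 FPKM (-2.58 ± 0.11 SE, limma adjusted p = 2.56e-15). The others that fell were Cdkn2a, Myc, Cdk4, Cdkn2c, Trp53, Cdk2, Cdkn1b, Ccnd3 and Gadd45a, by 0.18 to 0.86, and all but Cdkn1b and Trp53 are named after their values were seen.

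Cdkn1a (p21) rose from 107.8, 92.1 and 99.5 to 462.9, 466.0 and 468.3 FPKM with IL-1β in normal culture at 36 h (2.21 ± 0.08 SE). It rose from 93.3, 95.4 and 90.8 to 449.0, 425.5 and 409.5 in co-culture (2.19 ± 0.08 SE), and all treated libraries lay above all untreated ones. Between the cultures under IL-1β at 36 h Cdkn1a differed by -0.12 ± 0.08 (SE, limma adjusted p = 0.368), and its interaction was -0.03 ± 0.11 (adjusted p = 0.921). The relation of Cdkn1a to the members' changes was not tested. At 72 h under IL-1β Cdkn1a was lower in co-culture, by 0.50 (limma adjusted p = 0.000679) with the library that stood apart and by 0.36 (adjusted p = 0.000751) without it. Ccng1 and Btg2 of the G1 and CDK inhibitor list rose with IL-1β in normal culture at 36 h as well, by 1.87 and 1.78. Trp53, the gene of p53, fell by 0.66 (± 0.05 SE, limma adjusted p = 1.59e-10).

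**Figure D4:**
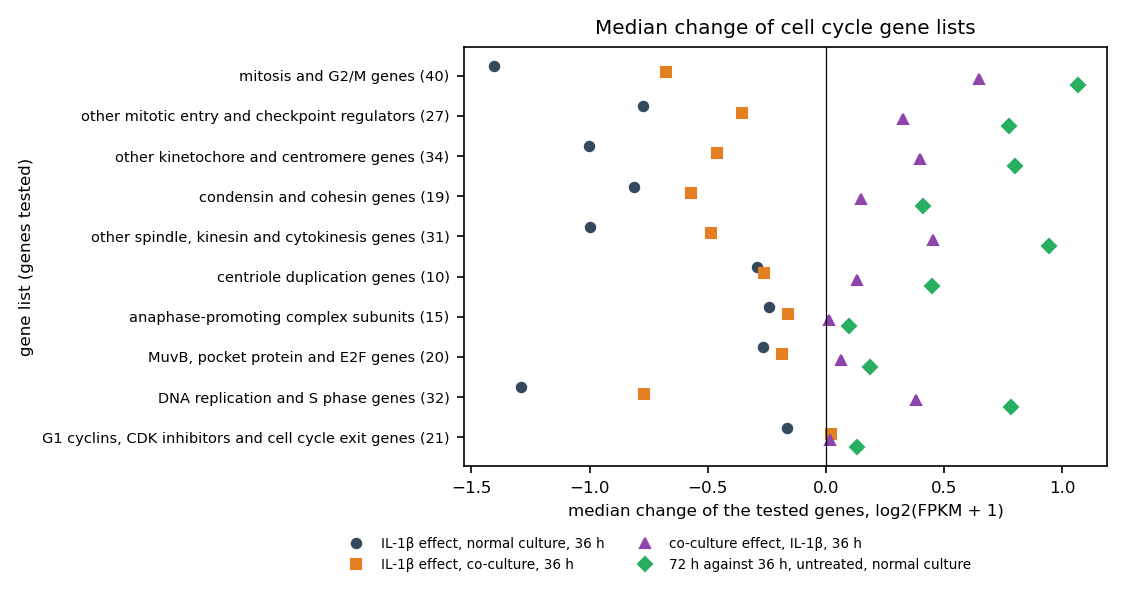
Median log2 change of the 40 members and of 9 other cell cycle lists with IL-1β in normal culture and in co-culture, and between cultures under IL-1β, at 36 h. The median change between 36 h and 72 h in untreated normal culture is plotted as well. The members (-1.41) and the DNA replication genes (-1.29) have the lowest medians with IL-1β in normal culture, and the G1 and CDK inhibitor list (-0.17) lies nearest 0.

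Cell type markers also moved between the groups. The 13 chondrocyte markers summed to 790.8 to 822.2 FPKM in untreated normal culture at 36 h and to 304.2 to 322.4 with IL-1β, where 11 of 12 tested were lower. Between co-culture and normal culture under IL-1β at 36 h, 1 of 12 passed, being lower in co-culture, where the sum was 308.1 to 316.8 FPKM. The summed level of 13 dermal fibroblast markers was 7846 to 8274 FPKM in normal culture with IL-1β at 36 h and 7648 to 7740 in co-culture, and 1 of 13 passed, being lower in co-culture. In that comparison limma called 0 of 11 macrophage and myeloid markers (2 with an unadjusted p under 0.05), and 2 of 12 skeletal muscle markers were lower, with 4.17% of all genes lower. With IL-1β in normal culture at 36 h, 5 of 13 fibroblast markers were higher and 6 lower, 5 of 11 macrophage markers were higher and 2 lower, and 4 of 12 muscle markers were higher and 2 lower, while 25.9% of all genes were higher and 41.5% lower.

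Over time the lists shifted more. Between 36 h and 72 h in untreated normal culture, the fibroblast markers summed to 8159 to 8440 and then 4590 to 4723 FPKM, and 9 of 13 were lower. All 12 muscle markers were lower (294.6 to 330.1 and then 48.82 to 56.36 FPKM), and 8 of 11 macrophage markers were higher (55.12 to 63.53 and then 103.4 to 110.5 FPKM). Over all genes 33.1% were higher and 25.3% lower in that comparison. At 72 h in normal culture all 12 muscle markers were higher with IL-1β than without, also without the library that stood apart, and 23.1% of all genes were. The pan-leukocyte gene Ptprc stayed at 0.08 to 0.65 FPKM in all libraries, and the endothelial markers Pecam1 and Cdh5 at or below 0.31. The 7 keratinocyte markers in the table summed to 4.51 to 4.62 FPKM in untreated normal culture at 36 h and 2.77 to 3.79 with IL-1β, and to 10.88 to 11.69 and 3.49 to 5.11 at 72 h. Only 3 of them were tested. With IL-1β in normal culture at 36 h Perp was higher and Trp63 lower, at 72 h both were lower, and Krt10 passed at neither time. The basal keratin gene Krt5 stayed at 0 to 0.11 FPKM. The part of these cell types in the members' results was not tested.

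The members were also set by their promoter letters, as a description over few genes. With IL-1β in normal culture at 36 h, the median change was -1.40 for the 23 genes with both motifs, -1.25 for the 6 with 1 of them, and -1.69 for the 4 with neither. For co-culture against normal culture under IL-1β at 36 h the medians were 0.63, 0.65 and 0.64 in the same order. Both motifs are present in Mki67, which fell most on the log2(FPKM + 1) scale, and in Spc25 and Ube2c, which were among those lowered least.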

How the data were processed

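Poly(A) RNA of mouse primary chondrocytes was sequenced in 24 libraries, 3 in each of 8 groups, which were assigned from the sample titles. The authors deposited 1 table of FPKM per gene and library, made on genome build GRCm38 per the submitters' processing notes. The aligner, counting tool and annotation are not given in the sources used here. Depth could not be recovered, since only 16.2% of 11448 low values came within 0.05 of whole multiples of their gene's smallest step, where chance gives 10%. No counting interval is therefore given.

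Values were taken as log2(FPKM + 1) for the 12178 of 17094 genes with at least 1 FPKM in at least 3 libraries. They were fitted with limma 3.58.1 (R 4.3.3), with a trended prior, 1 mean for each group, all 24 libraries, 16 residual degrees of freedom and 18 comparisons. Genes with a Benjamini-Hochberg adjusted p under 0.05, over all genes tested in a comparison, were called. A log2 change understates the change of genes near 0 FPKM. Plots used matplotlib 3.10.9 (Python 3.11), and positions came from GENCODE vM21.

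The members and lists were chosen with earlier results of these data known. All 40 members could be named, with up to 4 called genes of each other list at 5 FPKM or more in the higher group (largest change with IL-1β in normal culture at 36 h), 11 further genes whatever their result, and up to 3 most expressed and the first 4 markers of each cell type. Members were described role by role for IL-1β at 36 h, and in the other comparisons mainly where they were the most or least changed. No set test was made. Alternatives were a pseudocount of 0.1, no filter, a filter at 5 FPKM, rescaling to TPM, median-of-ratios scaling, a fit of the compared groups only, a block for the replicate number, and each library left out in turn. Same-numbered libraries deviated together (every correlation over 0.1) for co-culture against normal culture under IL-1β at 72 h alone.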

Additional observations from a re-analysis of the deposited data

Results flagged for a closer look

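4 differences between effects passed a test of the difference itself, each by limma over all genes. The IL-1β effect differed between co-culture and normal culture at 36 h for 38 of 40 members, being smaller in co-culture in each, and 4.73% of all genes differed in that direction. At 72 h it differed in the same way for 2, Kif11 and Nusap1, against 1.68% of all genes. That count was 0 with the compared groups only, and 0 to 15 leaving out each library. The IL-1β effect differed between 72 h and 36 h in normal culture for 34 members, or 40 without the library that stood apart. It was smaller at 72 h, and 23.7% of all genes changed in that direction. In co-culture it did so for 7, Mybl2, Aurkb, Mki67, Foxm1, Ndc80, Ttk and Bub1, a share of 17.5% that is close to the 14.1% of all genes, and the count ran from 3 to 21 under the alternatives. All groups held 3 libraries, so single libraries within a group were not tested as outliers.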

How the results depend on the processing

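No single-gene change that the main fit or the alternative called was reversed in sign between them. Signs were not compared where neither fit called the change. Of the members' changes under the alternatives, 22457 kept their side of the threshold, 294 lost it and 289 gained it. Counts of members called that moved little under every alternative were IL-1β at 36 h in normal culture (40 throughout) and co-culture (35 to 39), IL-1β at 72 h in normal culture (38 to 40) and co-culture (33 to 39), co-culture under IL-1β at 36 h (37 to 40), the interaction at 36 h (36 to 40), the difference of the IL-1β effect between times in normal culture (29 to 40), and time itself (40 in each of 4 conditions).

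Members lower in untreated co-culture at 36 h (0) were 1 with TPM, 1 with the replicate block, 11 with the compared groups only, 8 with the compared groups only and the block, and 0 to 7 leaving out each library. Members higher in untreated co-culture at 72 h (0) were 8 with the compared groups only, 9 with the block added, and 0 to 3 leaving out each library. Members higher in co-culture under IL-1β at 72 h (32) were 0 with the compared groups only, 0 with the block added, and 12 to 38 leaving out each library. The interaction at 72 h (2) was 1 with no filter, 0 with the compared groups only, 0 with the block added, and 0 to 15 leaving out each library; it was 0 without replicate 2 of untreated normal culture or of co-culture with IL-1β, 6 without replicate 3 of the latter, and 1 without any of 6 others of the 72 h libraries. The difference of the IL-1β effect between times in co-culture (7 higher, 0 lower) was 21 with the compared groups only, 20 with the block added and 3 to 20 leaving out each library, with 1 lower (0 to 1 leaving out each library), Nek2, in the compared groups only, with the block added, and without the library that stood apart. The difference of the co-culture effect between times was 14 with the compared groups only, 12 with the block added and 0 to 7 leaving out each library in untreated cells (0 higher). Under IL-1β (0 lower) it was 2 with a pseudocount of 0.1, 1 with TPM, 1 with median-of-ratios scaling and 0 to 29 leaving out each library. The upper ends of 7, 3, 20, 7 and 29 all came without the library that stood apart, and the cause of the other shifts was not tested. The compared groups only leave fewer libraries to estimate the spread.

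TPM moved the median of all genes with IL-1β in normal culture at 72 h from -0.08 to -0.20, and the members' median from -0.72 to -0.86. Higher calls as a share of all calls over all genes moved by over 10 points in some comparisons: from 36.4% to 23.6% (TPM) or 48.2% (median of ratios) there, from 37.6% to 23.9% (TPM) with IL-1β in co-culture at 72 h, from 40.6% to 54.0% (median of ratios) in untreated co-culture at 36 h, from 50.7% to 37.1% or 62.2% in untreated co-culture at 72 h, from 57.8% to 43.7% (median of ratios) in co-culture under IL-1β at 72 h, from 54.1% to 65.6% or 29.6% for the interaction at 72 h, and from 41.6% to 27.3% (median of ratios) for the difference between times of co-culture under IL-1β. Read depth is unknown, 3 libraries a group limit the precision, and low members such as Mybl2 are compressed by the pseudocount.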
